A study of Arabidopsis thaliana with 9 samples.

Results

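Pistils of Arabidopsis thaliana pollinated with pollen of a myb triple mutant were compared with unpollinated pistils, to describe which transcripts were still higher or lower when the pollen tubes in the pistil lacked 3 MYB transcription factors. The comparison was defined by sample titles alone and uses 6 of the 9 arrays of the study, 3 of each group. The other 3 arrays were of pistils pollinated with wild-type pollen and are given beside these groups where the difference between the pollen genotypes was tested.

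All arrays were of pistils of ms1 (male sterile 1) plants in the Ler-0 ecotype at flower stage 14, with 100 pistils per collection. Unpollinated pistils received no pollen. The mutant pollen carried myb97-1, myb101-4 and myb120-3 together in the Col-0 ecotype, the wild-type pollen was also Col-0, and both were left to grow for 8 hours after pollination at 9 in the morning. The labels call the replicates biological, without saying whether they came from separate plants or days, and they give no clock hour of collection for the unpollinated pistils, so time of day and pollination cannot be told apart. RNA was taken from dissected whole pistils with the tubes inside them, so no transcript was assigned to tube or pistil by the assay, and more tube cells and more RNA per tube cell cannot be told apart.

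A pollen tube is the outgrowth of the vegetative cell of a pollen grain, which carries the sperm cells through the stigma, style and transmitting tract to the ovules. It grows at its tip, where secreted pectin is loosened and stiffened by pectin enzymes, extensin-like proteins and expansins, while receptor kinases and RALF peptides keep the wall intact. MYB97, MYB101 and MYB120 are related transcription factors of the tube nucleus that are needed for the tube's reception by the female gametophyte.

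Every array gave an intensity for 22746 probe sets, and median intensities were 103.3 to 104.7 in unpollinated pistils and 109.9 to 114.6 with mutant pollen. Exactly 1 gene was listed for 13513 probe sets, several for 503 and none for 8730, and only those with 1 gene are named. No listed probe set measured MYB97, MYB101 or MYB120, so the mutant labels were not checked against the mutated genes. Of 17 carpel and transmitting tract markers 4 were measured. CES had intensities of 5221, 5634 and 2702 in the unpollinated arrays, and the ovule gene INO 218, 208 and 172. The others measured were SPT and AT3G12000. All arrays were of pistils, with no other tissue to compare, so these values do not test the pistil label.

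Many transcripts differed between pistils with mutant pollen tubes in them and unpollinated pistils. With limma at a Benjamini-Hochberg adjusted p under 0.05, 5083 probe sets (22.3%) were higher and 4367 (19.2%) lower than in unpollinated pistils, 41.5% in all, and the groups did not overlap at 50.5%. A count of a small gene list near these shares is therefore no result about the list. Of the probe sets that passed, 53.8% were higher on the deposited scale, 35.0% when each array's median was subtracted, which moved the median of all differences from 0.011 to -0.099, and 43.8% after renewed quantile normalization, so the direction of small differences is relative to the scaling.

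Large differences were more often rises than falls. At least 2-fold, 922 probe sets rose (4.05%) and 587 fell (2.58%), and at least 4-fold 406 rose (1.78%) and 108 fell (0.475%). At least 16-fold, 148 rose (0.651%) and 14 fell (0.0615%). The 148 steepest risers were dim before pollination, with a median intensity of 17.9 in unpollinated pistils against a lower quartile of 19.6 over all probe sets, and reached a median of 712.5 with mutant pollen. No detection calls were used, so a level this dim cannot be called absent, and a fold from it depends on the array's background. The 108 that fell at least 4-fold had a median of 293.4 before and 35.1 after, against 110.1 over all probe sets.

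**Figure D1:**
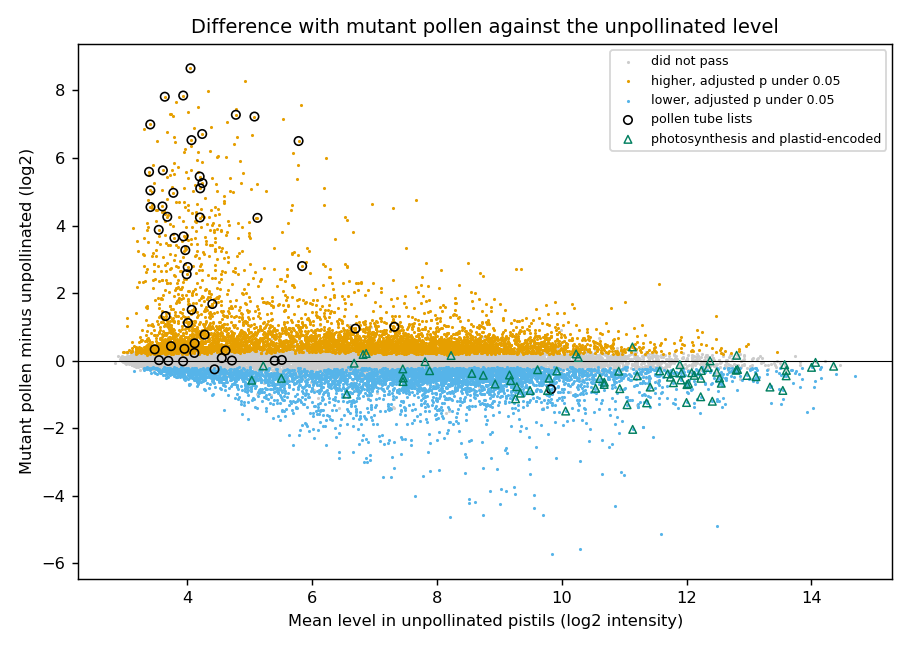
Each point is a probe set, with its mean log2 intensity in the 3 unpollinated arrays on the horizontal axis and the log2 difference of mutant pollen from unpollinated pistils on the vertical axis. Orange and blue points passed the test, circles are members of the pollen tube lists and triangles are photosynthesis and plastid-encoded genes. The steepest rises, up to 8.65 among genes with a name, lie at the dim left edge, and photosynthesis and plastid-encoded genes lie mostly at bright levels and at or below 0.

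The mutant pollen arrays were not equally high in the genes that rose. Among the 148 probe sets raised at least 16-fold, mutant array 2 was the highest of the 3 mutant arrays at 125 and array 1 the lowest at 128, and their median deviations from the group mean were 0.14 and -0.15 on the log2 scale. Over all 22746 probe sets the same arrays deviated by -0.003 and 0.008. Among the 108 probe sets that fell at least 4-fold, the unpollinated arrays spread more, with median deviations of 0.07, 0.23 and -0.16. These median deviations are small beside the differences, but single genes spread far more. AT5G48570, 1 of those that fell, was at 40.5, 770.7 and 333.1 in the unpollinated arrays, a range about as wide as its fall.

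Genes of pectin enzymes rose steeply with mutant pollen. Pectin methylesterases remove methyl groups from wall pectin, their inhibitors bind them, and polygalacturonases and pectate lyases cut the demethylated chain. Of 9 measured methylesterase and inhibitor genes, 8 rose and 1 did not pass, with a median log2 difference of 5.45 against 0.011 over all probe sets. Of 9 measured polygalacturonase and pectate lyase genes, 6 rose and 3 did not pass, with a median of 5.10.

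AT3G07820, a pollen polygalacturonase gene, had intensities of 20, 11.8 and 19.2 in the unpollinated arrays and of 6081, 7231 and 6747 with mutant pollen. This was a 402-fold rise (log2 8.65 ± 0.19 SE, n = 3 arrays per group, limma adjusted p = 1.73e-10), with every mutant array far above every unpollinated one. The pectin methylesterase gene AT5G07430 went from 16.2, 15.2 and 14.5 to 3192, 3848 and 3541, a 230-fold rise (log2 7.85 ± 0.10). A second methylesterase gene, AT3G05610, went from 16.8, 14 and 20 to 1342, 1808 and 1520.2 (log2 6.53 ± 0.14). In each of these genes mutant array 2 was the brightest and array 1 the dimmest of the mutant arrays.

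Among methylesterase inhibitor genes, AT4G02250 rose 225-fold, from 12.4, 12 and 13 to 2574, 3083 and 2759. AT1G10770 rose 155-fold, from 30.9, 18.4 and 36.3 to 3848, 4640.3 and 4299.6. On the log2 scale the rises were 7.81 ± 0.10 and 7.28 ± 0.21, and the groups did not overlap. AT2G26450 and AT5G07420, also methylesterase genes, rose by 5.45 ± 0.10 and 4.55 ± 0.10. The remaining 2 that passed rose by 1.12 and 1.32.

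The pectate lyase gene AT3G01270 went from 39.9, 29.7 and 32.4 to 4269.9, 5833 and 5149 (log2 7.22 ± 0.14). AT2G02720, of the same enzyme class, went from 11, 11.2 and 9.3 to 413, 600.5 and 516 (log2 5.59 ± 0.13), and AT59 went from 20, 16.4 and 19.2 to 549, 709 and 653 (log2 5.10 ± 0.13). No array of one group reached the other in these pectate lyase genes. AT5G15110 rose by 5.04 ± 0.17 and the polygalacturonase gene AT5G48140 by 6.99 ± 0.12. Of the genes that did not pass, AT3G07840 was at 26.7, 20.7 and 26.5 unpollinated and 31.1, 28.8 and 30.5 with mutant pollen (it passed without wild-type array 3, limma adjusted p = 0.0472), and AT5G39910 was at 10.7, 12.4 and 12 unpollinated and 11.9, 10.9 and 12.7 with mutant pollen.

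Genes of the tube's wall proteins also rose. Of 7 measured genes 6 rose and 1 did not pass, with a median of 4.24. AT5G45880, known as LAT52, a secreted cysteine-rich pollen protein, had intensities of 48.5, 51.6 and 66.7 before pollination and 4420.5, 5405 and 5184 with mutant pollen (log2 6.50 ± 0.13, 90.5-fold). Every mutant array lay far above the unpollinated ones.

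Leucine-rich repeat extensins bind RALF peptides in the tube wall, and all 4 pollen genes of this class were measured and rose. AT3G19020, known as LRX8, went from 11.2, 12.2 and 13.1 to 231, 329 and 313 (log2 4.57 ± 0.13). AT1G49490, known as LRX9, rose by 4.26 ± 0.15, AT2G15880, known as LRX10, by 3.68 ± 0.15 and AT4G33970, known as LRX11, by 2.77 ± 0.12. In all 4, mutant array 1 was the dimmest and array 2 the brightest mutant array. EXPB5, a wall-loosening beta-expansin gene, went from 19, 16.2 and 20.3 to 329, 367 and 347, and EXPB2 of the same class was at 23.9, 22.6 and 23.9 unpollinated and 26.2, 22.9 and 25.3 with mutant pollen and did not pass.

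**Figure D2:**
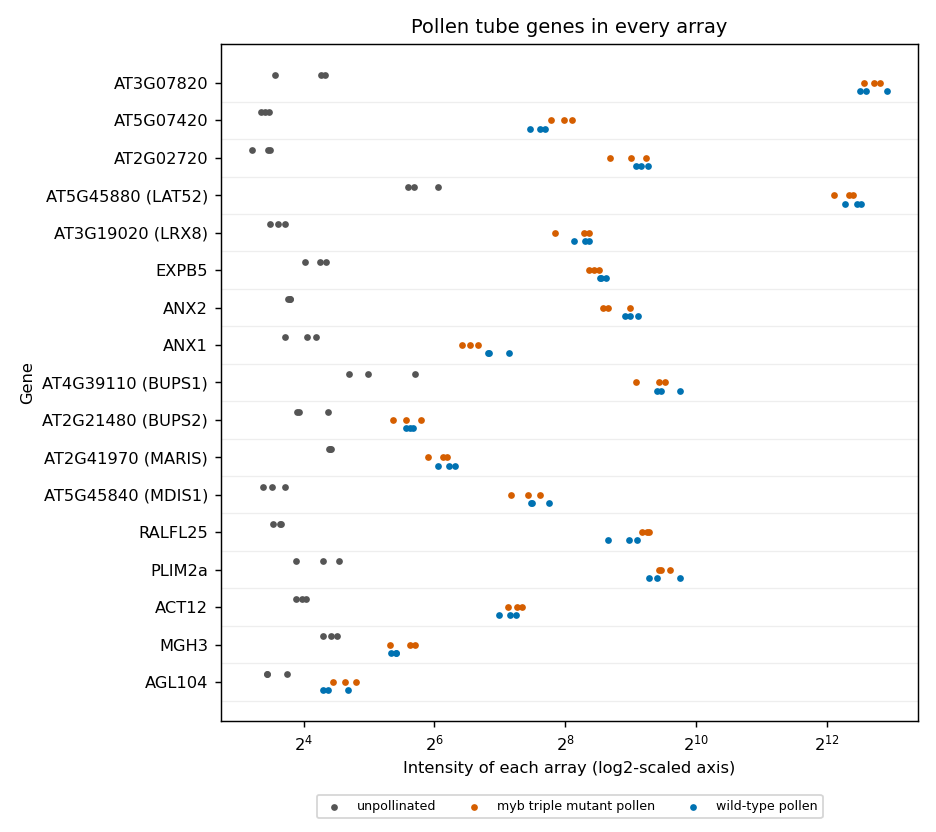
Intensity of each array, on a log2-scaled axis, for 17 genes of the pollen tube, chosen from those that rose with mutant pollen. List members that fell or did not pass, such as ACT11 and EXPB2, are not shown. Grey points are the 3 unpollinated arrays, orange points the 3 arrays with mutant pollen and blue points the 3 with wild-type pollen. In each row every orange point lies to the right of every grey point, from 2.13-fold for AGL104 to 402-fold for AT3G07820.

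Genes of the receptors that guard tube integrity and sense the pistil also rose. Of 11 measured receptor and kinase genes, of 44 in the list, 9 rose and 2 did not pass, with a median of 2.56. In most alternatives 8 rose, without AT1G72460 (0.23, limma adjusted p = 0.0428), named after its value was seen. ANX2, a receptor kinase gene that with ANX1 keeps the tube from bursting, had intensities of 13.5, 13.8 and 13.8 unpollinated and 383, 508 and 404 with mutant pollen (log2 4.97 ± 0.11). ANX1 went from 18.3, 13.2 and 16.6 to 86.2, 102 and 93.1 (log2 2.56 ± 0.13). AT4G39110, known as BUPS1, a partner of these receptors, went from 25.8, 31.6 and 52 to 545, 739 and 689.8 (log2 4.23 ± 0.23). The groups did not overlap in any of the 3 genes.

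AT5G45840, known as MDIS1, a tube receptor for the ovule's attractant peptide, went from 10.4, 11.5 and 13.2 to 145, 197 and 174 (log2 3.87 ± 0.13). AT4G08850, known as MIK2, rose by 2.80 ± 0.12 from 64.9, 59.3 and 48.8, and its relative AT4G28650, known as MIK1, was at 21, 23.8 and 20.3 unpollinated and 17.1, 16.6 and 21 with mutant pollen and did not pass. MIK1 passed as lower with array medians subtracted (-0.36, limma adjusted p = 0.0291) and after renewed quantile normalization (-0.40, limma adjusted p = 0.0184). PIPK11, for a phosphatidylinositol phosphate kinase of the tube tip, rose by 3.63 ± 0.10. AT4G31250, known as PRK7, was at 34.5, 45.9 and 47.5 unpollinated and 42.2, 46.2 and 38.6 with mutant pollen and did not pass. Named after their values were seen, AT2G21480 (BUPS2) rose by 1.51 ± 0.14 and AT2G41970 (MARIS), a kinase gene downstream of ANX1 and ANX2, by 1.68 ± 0.10.

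Both measured RALF peptides of the tube rose, which are small secreted ligands of such receptors. RALFL26 went from 25.3, 13.7 and 19.4 to 1795, 2135 and 2006, a 105-fold rise (log2 6.71 ± 0.19). RALFL25 went from 12.4, 12.6 and 11.6 to 580.0, 622 and 613 (log2 5.63 ± 0.11). Among 10 measured RALF-like genes of the wider family, 2 rose, which are these, and 2 fell, RALFL33 by 0.73 ± 0.21 and RALFL32 by 0.53 ± 0.10. With array medians subtracted, 5 of the 10 passed as lower.

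Cytoskeleton genes moved both ways. PLIM2a, for an actin-bundling LIM protein of pollen, went from 19.7, 14.8 and 23.3 to 704, 781 and 689.8 (log2 5.26 ± 0.16), and PLIM2b from 159, 129.8 and 197 to 288, 365 and 311 (log2 1.00 ± 0.16). The pollen actin gene ACT12 went from 15.8, 14.8 and 16.4 to 162, 153 and 139 (log2 3.27 ± 0.09). ACT11, an actin gene of reproductive tissues, fell from 982, 955 and 798 to 449, 662 and 436 (log2 -0.84 ± 0.18). So 3 of 4 measured genes, of 29 in the list, rose and 1 fell.

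The few measured transport genes of the tube had small differences. Of 39 in the list 8 were measured, of which 4 rose, by 0.34 to 0.95, and 4 did not pass, with a median of 0.34. With dim probe sets left out, 2 of 4 rose, with a median of 0.64. SWEET8, a sugar exporter gene, went from 142, 116 and 67.2 to 194, 201 and 204 (log2 0.95 ± 0.21), and SWEET13 from 18.8, 20.5 and 18.9 to 24.6, 30.9 and 47.5 (log2 0.77 ± 0.19). ATGLR1.2, for a glutamate receptor-like calcium channel, rose by 0.35 ± 0.11, a call lost in several alternatives (limma adjusted p = 0.0567 to 0.111), and CHX21, for a cation exchanger, by 0.34 ± 0.09. The hexose importer genes AT5G26250 and AT3G19940, known as STP8 and STP10, did not pass and are described with the genes that differed between pollen genotypes.

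Sperm cell and pollen regulatory genes passed about as often as all probe sets. The sperm histone gene MGH3 went from 22.8, 19.7 and 21.4 to 49.5, 40.2 and 52 (log2 1.14 ± 0.10), while TET11 was at 17.5, 21.4 and 21.6 unpollinated and 19.2, 16.8 and 16.2 with mutant pollen and TET12 at 13.5, 14.4 and 15.8 unpollinated and 14.4, 12.4 and 16.7 with mutant pollen, and neither passed, though TET11 passed as lower in 3 alternatives (limma adjusted p = 0.0223 to 0.0276). Of 9 measured pollen transcription factor genes 3 rose, 1 fell and 5 did not pass, with a median of 0.25, a share close to that of all probe sets. AGL104, a MADS-box factor of late pollen development, went from 10.8, 13.4 and 10.8 to 21.9, 24.8 and 27.9 (log2 1.09 ± 0.13). AGL66 rose by 0.43 ± 0.07 and AGL65 by 0.39 ± 0.09, the latter lost after renewed quantile normalization (0.18, limma adjusted p = 0.17). BZIP34 fell from 32.9, 32.9 and 31.6 to 14.7, 25.3 and 18.1.

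Markers of other tissues moved beside these genes. The summed intensity of the 3 measured sperm genes, of which only MGH3 passed, was 53.8 to 58.8 unpollinated and 69.4 to 84.9 with mutant pollen. That of 5 of 17 anther, tapetum and pollen coat markers was 933 to 1572 unpollinated and 1711 to 1864 with mutant pollen, and AT1G75900, known as EXL3, an extracellular lipase gene of the pollen coat, was at 1489, 1261 and 855 unpollinated and 1574, 1618 and 1734 with mutant pollen, a rise lost in several alternatives (limma adjusted p = 0.0502 to 0.106). AT1G75900 made up most of the summed intensity of the 5 markers. Of these 5, 2 rose, 1 fell and 2 did not pass; AT1G75880, known as EXL1, rose by 1.27 ± 0.14, and the tapetum gene AT5G07230, known as A9, fell by 0.23 ± 0.07, also lost in several alternatives (limma adjusted p = 0.054 to 0.0989). The part of pollen coat or anther RNA in the rises was not tested, nor was the part of sequence differences between Ler-0 pistils and Col-0 pollen.

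The other genes with the 15 highest differences came from outside the tube lists. They were AT5G39880 (12.7, 12.4 and 18.1 to 2504, 3304 and 2837, 202-fold), AT3G28750 (143-fold), AT3G01240 (115-fold) and AT5G54095 (108-fold), for which no function is given here. The peroxidase gene AT5G47000 went from 16.6, 18.4 and 16.6 to 1846, 2288 and 1951, and AT5G26700, of the germin-like wall proteins, from 29.7, 24.9 and 29.4 to 2419, 2978 and 2896. Over all 15, the mutant arrays were at 968.8 or more and the unpollinated arrays at 67.6 or less.

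Single members of wider families also rose steeply. Among 29 measured serine carboxypeptidase-like genes, 5 rose and 4 fell with a median of 0.02, but scpl38 went from 14.3, 16.6 and 16 to 1082, 1323 and 1168 (log2 6.25 ± 0.10). LCR72, for a defensin-like cysteine-rich peptide, went from 20.5, 17.9 and 24.6 to 436, 458 and 468 (log2 4.45 ± 0.11), while 4 of the 13 measured genes of its class rose and 2 fell. TET13 of the tetraspanins, membrane scaffold proteins, went from 14.5, 13.9 and 13.2 to 70.5, 86.8 and 86.2, in a family of 15 with 4 higher and 6 lower. Only 2 tetraspanin genes were higher without unpollinated array 1 or 3 or mutant array 1 or 3, and 2 were higher and 8 lower under either rescaling. CHX6B, for a cation exchanger, rose by 1.75 ± 0.09, and 3 of 6 measured members of its family rose. Beside these family counts, 22.3% of all probe sets were higher and 19.2% lower.

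Most measured nuclear photosynthesis genes fell with mutant pollen. Of 39 in the list 7 were measured. Of these 5 fell, 1 of them at least 2-fold, and 2 did not pass, with a median log2 difference of -0.39. RCA, which activates the carbon-fixing enzyme Rubisco, went from 12855, 12161 and 10885 in the unpollinated arrays to 6794, 5914 and 6794 with mutant pollen (log2 -0.88 ± 0.09, limma adjusted p = 2.9e-05). LHCB4.2, of a minor light-harvesting antenna, went from 4482, 4211 and 3641 to 1924, 1698 and 1607 (log2 -1.24 ± 0.10). The groups did not overlap in either gene. The antenna genes LHCB4.1 and LHCB4.3, of the same class, did not pass (-0.26 ± 0.11 and 0.20 ± 0.10), though LHCB4.1 passed as lower in 3 alternatives (limma adjusted p = 0.0123 to 0.0469) and LHCB4.3 as higher without unpollinated array 1 (0.29, limma adjusted p = 0.0369). PSAE-1, a photosystem I subunit, had a difference of -0.47 ± 0.10, and the Calvin cycle genes SBPASE and PRK had -0.39 ± 0.08 and -0.35 ± 0.09.

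Many plastid-encoded transcripts fell. Of 69 measured genes, 41 were lower, 7 of them at least 2-fold, and 1 was higher. The median difference was -0.45. The photosystem II gene psbA went from 1563, 2288 and 3192 to 465, 714 and 502 (log2 -2.03 ± 0.26, 4.09-fold lower). The ribosomal protein gene rps15 went from 904, 916 and 1479 to 359.5, 422 and 365 (log2 -1.49 ± 0.19). In both genes the unpollinated arrays spread widely, with array 3 the brightest, and the mutant arrays lay below all of them.

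The ATP synthase genes atpH and atpA had differences of -1.30 ± 0.27 and -1.20 ± 0.11, the RNA polymerase gene rpoC1 of -1.25 ± 0.18 and petL, of the cytochrome complex, of -1.13 ± 0.21. The gene that rose was ndhA, named after its value was seen, from 2149.8, 2369 and 2226 to 2876, 2876 and 3192. The count of lower genes ran from 34 of 69 without mutant array 3 to 52 with array medians subtracted. After renewed quantile normalization it was 40. The summed intensity of the 69 genes was 237813 to 266766 unpollinated and 183406 to 203118 with mutant pollen, so the groups did not overlap. The labelling kit primes on poly(A) tails, and how evenly it captures plastid transcripts was not tested.

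Among genes bright in unpollinated pistils and lowered at least 2-fold were others of the chloroplast. PSAN, of photosystem I, went from 7181, 6472 and 5008 to 3327, 2539 and 2798 (log2 -1.10 ± 0.14), and HPR, a photorespiration gene, from 4804, 4640.3 and 3956 to 1808, 1574 and 1758 (log2 -1.38 ± 0.09). AT1G51400, of a photosystem II protein family, went from 6208, 5997 and 5078 to 2957, 2436 and 2487, and the plastid-encoded psbK from 5257, 5442 and 3848 to 2091, 2352 and 2436. PORB, an enzyme of chlorophyll synthesis, moved the other way, from 867, 955 and 776 to 3236, 2647 and 2336 (log2 1.65 ± 0.16), as did CHL, for a chloroplast lipocalin, from 760.1, 760.1 and 709 to 1710.3, 1698 and 1734.

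**Figure D3:**
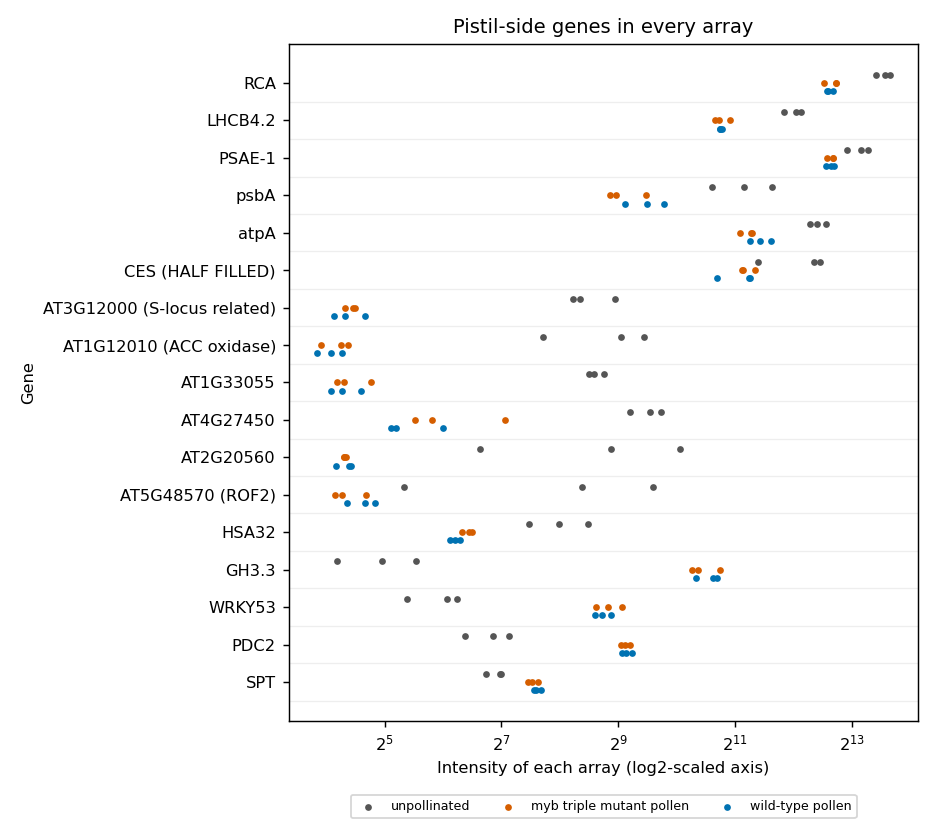
Intensity of each array, on a log2-scaled axis, for 17 genes outside the pollen tube lists. Grey points are unpollinated, orange points mutant pollen and blue points wild-type pollen. RCA, psbA and AT1G33055 lie lower with mutant pollen, GH3.3, WRKY53 and PDC2 lie higher, and the grey points of AT2G20560 and AT5G48570 spread over more than 10-fold.

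Genes of the low-oxygen response that passed more often fell than rose. The core hypoxia genes are switched on in many organs when oxygen is low, and of 21 measured 2 rose, 9 fell and 10 did not pass, with a median of -0.45. Without unpollinated array 2, 3 rose and 6 fell with a median of -0.24, and 6 fell without mutant array 1, 2 or 3. AT1G33055 went from 430.5, 383 and 362 to 27.3, 18.1 and 19.8, 18.3-fold lower (log2 -4.19 ± 0.17), and AT4G27450 from 849, 744 and 588 to 134, 45.9 and 56.1 (log2 -3.36 ± 0.36). Mutant array 1 stood above the other mutant arrays in AT4G27450, still below every unpollinated array.

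AT4G33560 had a difference of -1.47 ± 0.23 and AT3G03270, of the universal stress protein family, of -1.01 ± 0.08. AT3G10040, known as HRA1, a factor that restrains the response, had -1.01 ± 0.34, and its call was lost in several alternatives (limma adjusted p = 0.0581 to 0.123). PDC2, for the fermentation enzyme pyruvate decarboxylase, rose from 83.3, 140.1 and 115 to 556, 526 and 592 (log2 2.34 ± 0.16). The other gene that rose was AT5G27760, named after its value was seen, by 0.31 ± 0.10, and the number of genes that rose ran from 1 to 3 over the alternatives. The summed intensity of the 21 genes was 6472 to 8256 unpollinated and 5504 to 5858 with mutant pollen.

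Heat shock genes were lower with mutant pollen, and the unpollinated arrays differed widely among themselves. Of 9 measured, 6 fell, 1 rose and 2 did not pass, with a median of -1.56, and without unpollinated array 2, 2 rose. Their summed intensity was 754, 4323 and 2075 in the unpollinated arrays and 431 to 455 with mutant pollen. AT2G20560, of the DnaJ co-chaperones, was at 99, 1060.1 and 471 unpollinated and 20.3, 19.7 and 19.8 with mutant pollen (log2 -4.20 ± 0.63). AT5G48570, known as ROF2, was at 40.5, 771 and 333 unpollinated and 19.3, 25.6 and 18 with mutant pollen (log2 -3.40 ± 0.80). In both, unpollinated array 2 was the brightest and array 1 the dimmest, and array 1 still lay above every mutant array.

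The co-chaperone genes Hop3 and Fes1A had differences of -2.85 ± 0.58 and -1.98 ± 0.44, and HSA32, needed for heat memory, went from 177, 357 and 254 to 89.9, 86.8 and 79.9. AT1G53540, a small heat shock protein gene, rose from 18.1, 24.6 and 20.7 to 33.8, 44 and 50.9 (log2 1.01 ± 0.15). The small heat shock protein gene AT1G54050, among the 15 lowest named genes, was at 474, 4096 and 2135 unpollinated and 132, 165 and 174 with mutant pollen. A part of handling or growth conditions of the unpollinated arrays in these falls was not tested.

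Of 12 measured auxin genes 5 rose and 1 fell, with a median of 0.25, against 22.3% higher and 19.2% lower over all probe sets. GH3.3, whose enzyme links auxin to amino acids, went from 31.1, 18.1 and 46.5 to 1722, 1314 and 1235, 47.4-fold higher (log2 5.57 ± 0.28). WES1, also a GH3 enzyme gene, fell from 269, 265 and 208 to 115, 115 and 116 (log2 -1.09 ± 0.12). So genes of 1 enzyme class moved apart, and GH3.1 did not pass (-0.06 ± 0.14). The response repressor genes IAA31, IAA30 and IAA34 rose by 1.69 ± 0.22, 0.74 ± 0.09 and 0.34 ± 0.06, and the auxin synthesis gene YUC6 by 0.53 ± 0.13, a call lost after renewed quantile normalization (0.31, limma adjusted p = 0.0672).

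In ethylene synthesis, the ACC oxidase gene AT1G12010 went from 695, 526 and 211 to 15, 19 and 20.7 (log2 -4.56 ± 0.35). EIN3, the main transcription factor of ethylene signalling, went from 739, 809 and 739 to 962, 873 and 867 (log2 0.24 ± 0.07), a rise lost in several alternatives (limma adjusted p = 0.0544 to 0.204). Only these 2 of 18 ethylene genes were measured.

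All 3 measured defence genes rose, of 28 in the list, though only WRKY53 did so in every alternative. WRKY53, a regulator of defence and senescence, went from 41.9, 75.6 and 67.2 to 393, 452 and 534 (log2 2.93 ± 0.20). PDF1.2, a jasmonate-induced defensin gene, rose by 0.41 ± 0.08 and WRKY6 by 0.32 ± 0.10, and after renewed quantile normalization neither passed (limma adjusted p = 0.0541 and 0.38). The WRKY6 call was also lost with array medians subtracted (0.126), without unpollinated array 2 (0.0513) or 3 (0.0626) and without mutant array 1 (0.0765) or 3 (0.0979). WRKY22, from the wider family, fell from 62.7, 112 and 125 to 48.2, 41.4 and 53.4 (log2 -1.02 ± 0.23). The evening clock gene GI went from 244, 261 and 315 to 404, 666 and 564, and collection at different hours cannot be told apart from pollination for it. DFR, of anthocyanin synthesis, went from 237, 237 and 221 to 685, 704 and 526.

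Of 4 measured carpel and stigma genes 2 fell and 1 rose, too few for a result about the list. AT3G12000, an S-locus related glycoprotein gene whose Brassica relatives are expressed in stigma papillae, went from 324, 495 and 300.2 to 21.9, 20 and 22.5, 16.9-fold lower (log2 -4.08 ± 0.18). CES, of transmitting tract development, went from 5221, 5634 and 2702 to 2592, 2226 and 2257 (log2 -0.87 ± 0.25), and unpollinated array 3 lay close to the mutant arrays; the call was lost without unpollinated array 1 (limma adjusted p = 0.0617) or 2 (0.0693) or mutant array 2 (0.0548) or 3 (0.0556). SPT, a factor of carpel margin and transmitting tract, rose from 125, 128 and 106 to 175, 198 and 185 (log2 0.64 ± 0.09), and the ovule gene INO did not pass (-0.22 ± 0.11), though it did as lower in 3 alternatives (limma adjusted p = 0.0313 to 0.0486). The summed intensity of the 4 measured markers was 3281 to 6465 unpollinated and 2615 to 2969 with mutant pollen, and CES made up most of it.

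Of 15 listed genes of the female gametophyte, the tubes' target, 6 were measured, too few for a result about it. Of these 1 rose, AGL80, from 45.6, 44.3 and 47.8 to 53.4, 64 and 49.9. Its call was lost under most alternatives (limma adjusted p = 0.0528 to 0.597). FER, a receptor kinase gene of tube reception, was at 1287, 1468 and 1305 unpollinated and 1438, 1563 and 1479 with mutant pollen, and the egg cell genes EC1.5 and EC1.2 had differences of 0.35 ± 0.27 and -0.17 ± 0.17. None of these 3 passed, though EC1.2 did as lower without unpollinated array 3 (limma adjusted p = 0.03). The summed intensity of the 6 genes was 1443 to 1663 unpollinated and 1637 to 1749 with mutant pollen, and FER made up most of it.

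The other genes with the 15 lowest differences were a mixed group. AT2G33850 went from 3236, 3875 and 2320.1 to 72, 96.3 and 98.4, 34.9-fold lower (log2 -5.13 ± 0.18), the lowest difference of a named gene. AT2G05540, of the glycine-rich proteins, went from 815, 671 and 254 to 38.9, 21.7 and 24.8, and the peroxidase gene AT5G19880 from 626, 653 and 342 to 41.9, 35.5 and 35.5. PAP85, for a cupin of the seed storage protein class, went from 274, 152 and 86.8 to 16.1, 12.6 and 13.6, and AT1G62510, of the lipid transfer protein class, from 186, 119 and 126 to 14, 13.2 and 11.4. AT1G16950, AT4G19430 and AT1G26800 had differences of -4.01 ± 0.17, -3.74 ± 0.26 and -3.27 ± 0.26.

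Of wall-loosening genes outside the tube lists, EXPA4 went from 221, 246 and 182 to 1209, 879 and 969 (log2 2.23 ± 0.14) and EXLA3 from 67.6, 81 and 91.8 to 377, 347 and 452 (log2 2.29 ± 0.13). EXPA8 fell from 292, 258 and 219.8 to 153, 95 and 150.1. In all, 7 of 18 measured expansin genes rose and 1 fell, and of 9 xyloglucan-modifying XTH genes 3 rose, among them XTH32 by 0.72 ± 0.17, and 1 fell, XTH33 (-0.83 ± 0.21). Of 14 measured SWEET sugar exporter genes 3 rose and 4 fell, and without unpollinated array 3, 8 fell. SWEET11 went from 298, 284 and 214 to 152, 151 and 133. Over all probe sets 22.3% were higher and 19.2% lower.

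UDP-glycosyltransferases, which attach sugars to hormones and small molecules, had 17 of 47 measured genes higher and 6 lower, with a median of 0.10. UGT76B1, whose enzyme acts in defence signalling, went from 12.2, 9.8 and 11.8 to 52.7, 50.9 and 78.2 (log2 2.40 ± 0.16). UGT87A2 went from 71.5, 66.3 and 60.1 to 288, 265 and 307, and UGT74D1 fell from 147, 118 and 93.1 to 41.9, 51.6 and 40.5. The median was -0.01 with array medians subtracted. Shares over all probe sets were 22.3% higher and 19.2% lower. Cytochrome P450 genes had 1 of 23 higher, CYP71B23, from 13.3, 9.6 and 10.6 to 69.6, 71.5 and 67.6, and 6 lower, led by CYP79A2 at -1.17 ± 0.13. The lower count ran from 2 with dim probe sets left out to 10 with array medians subtracted, and was 3 without unpollinated array 3 or mutant array 3.

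Among bright genes that rose at least 2-fold, AT1G13930 went from 2019.8, 2257 and 1201 to 4673, 5405 and 5518 (log2 1.56 ± 0.19), BGLU44, a beta-glucosidase gene, from 1269.5, 1105 and 942 to 1808, 2817 and 2778 and AT2G43550 from 1060.1, 916 and 949 to 1734, 2320.1 and 2226. AT3G52500, of the aspartyl proteases, went from 910.2, 734 and 749.6 to 1758, 1911 and 2034. In each of them the mutant arrays lay above every unpollinated one.

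**Figure D4:**
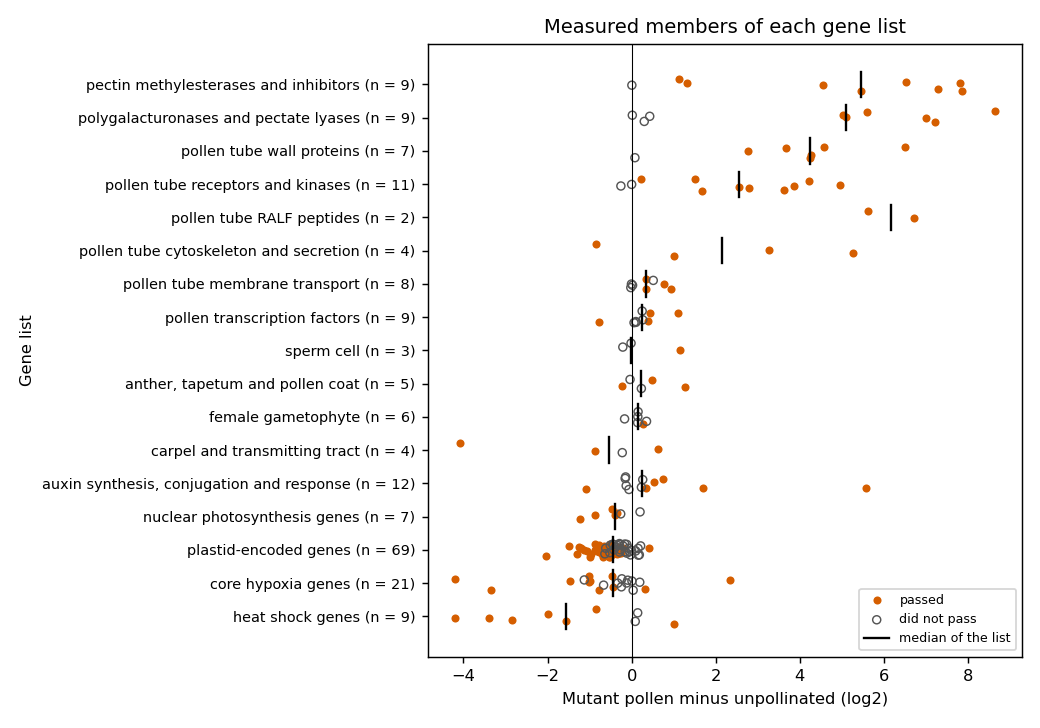
Log2 difference of mutant pollen from unpollinated pistils for every measured member of 17 gene lists. Filled points passed the test, open points did not, and a bar marks the list's median. Pectin enzyme, wall, receptor and RALF lists have medians between 2.56 and 6.17, and the photosynthesis, plastid, hypoxia and heat shock lists have medians between -1.56 and -0.39.

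The same lists were measured with wild-type pollen, in a comparison that shares the unpollinated arrays. With wild-type pollen 5328 probe sets were higher (23.4%) and 4596 lower (20.2%), 43.6% in all, and the groups did not overlap at 52.8%. The methylesterase and inhibitor list had 9 of 9 members higher with wild-type pollen and 8 of 9 with mutant pollen, with medians of 5.66 and 5.45. The polygalacturonase and pectate lyase list had 7 and 6 of 9, with medians of 5.28 and 5.10, and the receptor and kinase list 8 and 9 of 11 (8 in most alternatives for mutant pollen), with medians of 2.91 and 2.56. Plastid-encoded genes had 40 lower with wild-type and 41 with mutant pollen, with medians of -0.36 and -0.45, and heat shock genes 6 and 6, with medians of -1.77 and -1.56.

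Whether the response to mutant pollen differed from that to wild-type pollen was tested directly. At a limma adjusted p under 0.05, 65 probe sets (0.286%) were lower and 6 (0.0264%) higher with mutant than with wild-type pollen, 26 and 5 of them with 1 listed gene, and the 2 groups did not overlap at 9.96% of all probe sets. Within the tube lists 4 genes were lower, 1 of 9 in each pectin list and 2 of 8 in the transport list. In the wall, receptor and RALF lists limma called no member. At an unadjusted p under 0.05, 0 of the 7 wall genes passed, 3 of the 11 receptor genes were lower and 1 of the 2 RALF genes was higher. The share of all probe sets at that unadjusted p was not counted, so these counts are no result about the lists. Over the wall, receptor and RALF lists, mutant minus wild-type differences ran from -0.39 to 0.33. ANX2 had 481, 512 and 553 with wild-type pollen (mutant minus wild type -0.26 ± 0.11), and LAT52 had 4973, 5634 and 5914 (-0.14 ± 0.13).

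Some genes lower than with wild-type pollen did not pass against unpollinated pistils. AT1G02550, a likely pectin methylesterase inhibitor gene, was at 25.3, 26.4 and 27.1 unpollinated, 22, 33.1 and 25.1 with mutant pollen and 95, 117 and 79.3 with wild-type pollen. AT5G26250, known as STP8, was at 51.3, 48.8 and 38.1 unpollinated, 49.9, 44.9 and 44.6 with mutant pollen and 135, 155 and 143 with wild-type pollen. Against unpollinated pistils the mutant differences were 0.01 ± 0.16 and 0.02 ± 0.11, and the mutant and unpollinated arrays overlapped in both. AT5G09280, a pectin lyase-like gene, was at 14.9, 12 and 13.3 unpollinated, 14.4, 31.8 and 12.7 with mutant pollen and 154, 142 and 111 with wild-type pollen, with mutant array 2 above the unpollinated arrays and the other mutant arrays among them.

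AT5G46200 was at 16.9, 17.3 and 18.3 unpollinated, 19.3, 46.5 and 20.4 with mutant pollen and 206, 259.6 and 217 with wild-type pollen, and AT3G19940, known as STP10, at 16.1, 16.9 and 19.2 unpollinated, 24, 31.6 and 20.4 with mutant pollen and 115, 189 and 102 with wild-type pollen. Their mutant arrays all lay above the unpollinated ones, but the differences did not pass (0.59 ± 0.27, limma adjusted p = 0.107, and 0.51 ± 0.22, limma adjusted p = 0.0855). AT5G46200 passed without mutant array 1 (limma adjusted p = 0.044), and AT3G19940 in 3 alternatives (limma adjusted p = 0.0246 to 0.0419).

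Other genes rose with mutant pollen and stayed below the wild-type level. AT1G06540 was at 16.6, 17.9 and 21.9 unpollinated, 102, 206 and 119 with mutant pollen and 526, 630.3 and 481 with wild-type pollen, so that a 7.3-fold rise was left. The subtilase gene AT1G66220 was at 12.5, 13.5 and 16.4 unpollinated, 74.5, 129 and 99 with mutant pollen and 258, 298 and 269 with wild-type pollen, with a 7-fold rise left. IAA31 was at 18.5, 18.5 and 15.9 unpollinated, 46.5, 82.7 and 47.8 with mutant pollen and 158, 229 and 148 with wild-type pollen, a 3.23-fold rise. In these genes the 3 groups did not overlap, and the mutant level lay between the others.

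AT4G26830, of the glucan-cutting glycosyl hydrolases, was at 11.5, 14.8 and 14.2 unpollinated, 31.1, 61.4 and 30.7 with mutant pollen and 209, 294 and 189 with wild-type pollen, and AT3G26870 at 9.6, 9.8 and 8.8 unpollinated, 12, 16 and 13.4 with mutant pollen and 60.1, 67.6 and 50.6 with wild-type pollen. The expansin gene EXPA16 was at 43.1, 41.6 and 31.1 unpollinated, 132, 132 and 115 with mutant pollen and 205, 274 and 221 with wild-type pollen (mutant minus wild type -0.88 ± 0.14, limma adjusted p = 0.0341), a difference that lost its call when any mutant or wild-type array was left out (limma adjusted p = 0.062 to 0.198), and without unpollinated array 2 (0.0528). For IAA31 the difference from wild type lost its call without wild-type array 2 (limma adjusted p = 0.0608) or mutant array 1 (0.0742) or 3 (0.0882).

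**Figure D5:**
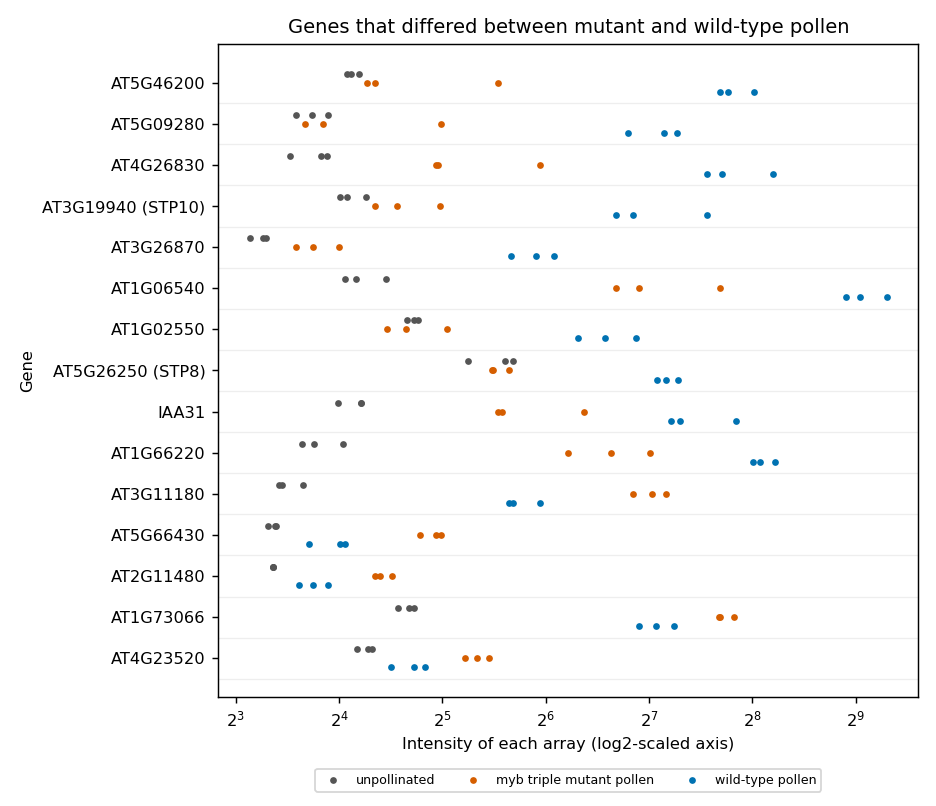
Intensity of each array, on a log2-scaled axis, for 15 named genes that differed between mutant and wild-type pollen. They are the 10 with the lowest mutant minus wild-type differences and the 5 that were higher. Grey points are unpollinated, orange points mutant pollen and blue points wild-type pollen. In the upper 10 rows the orange points lie below the blue ones and mutant array 2 is often the rightmost orange point, and in the lower 5 rows the orange points lie above the blue ones.

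The mutant arrays were uneven in these genes as well. Mutant array 2 was the highest of the 3 mutant arrays at 51 of the 65 probe sets that were lower than with wild-type pollen (78.5%), against 32.1% of all probe sets, and it correlated best with wild-type array 1 (r = 0.9975 across probe sets). Without it, 62 probe sets were lower and 6 higher. Without mutant array 3, 32 were lower and 3 higher, and without mutant array 1, 33 and 4. Without wild-type arrays 1, 2 and 3 in turn, 39, 33 and 42 were lower and 3, 5 and 7 higher, and without unpollinated array 3, 69 and 16.

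The 5 named genes that were higher with mutant than with wild-type pollen all rose over unpollinated pistils too. AT3G11180, of the 2-oxoglutarate-dependent oxygenases, was at 10.7, 10.9 and 12.6 unpollinated, 115, 131 and 143 with mutant pollen and 51.3, 50.2 and 61.4 with wild-type pollen (mutant minus unpollinated 3.5 ± 0.11). AT1G73066 was at 25.6, 23.8 and 26.5 unpollinated, 205, 226 and 206 with mutant pollen and 119, 151 and 134 with wild-type pollen. AT5G66430, of the methyltransferases, was at 10.5, 10.4 and 9.9 unpollinated, 27.5, 31.8 and 30.7 with mutant pollen and 13.1, 16.1 and 16.6 with wild-type pollen. In each of these genes the mutant arrays were the highest of all 9. AT2G11480 and AT4G23520, a cysteine protease gene, had mutant minus unpollinated differences of 1.05 ± 0.09 and 1.08 ± 0.10. The differences of AT1G73066, AT2G11480 and AT4G23520 from wild type lost their calls in several alternatives (limma adjusted p = 0.0509 to 0.152).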

How the data were processed

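The authors measured RNA of 9 pistil collections on Affymetrix arrays, 3 per group, and deposited 1 linear intensity per probe set and array. RMA, Affymetrix Expression Console and Partek were named in the submitters' processing notes, with no versions, and per the labels 100 ng of total RNA was labelled with a 3' IVT kit. The deposited intensities were taken to log2. Design choices had assumed log2 values; the test was kept. Of 22810 probe sets, 64 controls were left out. All 9 arrays were fitted with 1 mean per group (limma 3.58.1, R 4.3.3, eBayes, 6 residual and 4.24 prior degrees of freedom), with Benjamini-Hochberg adjustment over 22746 probe sets at 0.05. Counts of reads do not exist for arrays, so 3 arrays per group limit the precision, and p-values measure the spread between these collections.

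A list gene with several probe sets is represented by the one with the highest mean. Named genes were the 15 highest and 15 lowest for mutant pollen minus unpollinated, up to 10 in each direction for mutant minus wild type, the 6 brightest that rose and the 6 brightest that fell at least 2-fold, and per list up to 6 that passed and 3 that did not. Members and lists were chosen with earlier results of these data known, and the patterns for plastid and defensin genes were amended after values were seen. Alternatives were the compared groups alone, array medians subtracted, renewed quantile normalization, eBayes with trend and robust settings, dim probe sets left out, a replicate block, and each array left out. Simulated data were used to test the fit. Gene names came from the platform annotation, and 13436 probe sets matched TAIR10.1.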

Additional observations from a re-analysis of the deposited data

Results flagged for a closer look

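CYP78A9, a cytochrome P450 gene of fruit growth, was higher than unpollinated with wild-type pollen and lower with mutant pollen, the latter a call that depends on the setting. The unpollinated arrays were at 78.8, 74.5 and 84.4, those with mutant pollen at 55.7, 76.6 and 50.2, and those with wild-type pollen at 108.4, 109.9 and 116.2. Mutant array 2 lay within the unpollinated range and the other mutant arrays below it. The difference between the pollen genotypes was -0.90 on the log2 scale (limma adjusted p = 0.0225). That call was lost with the compared groups alone, with a replicate block and without any of 5 arrays, among them mutant arrays 1 and 3 (limma adjusted p = 0.0525 to 0.126). The fall against unpollinated pistils, -0.40, lost its call with the compared groups alone (limma adjusted p = 0.0732), without unpollinated array 1 (0.0694) or 3 (0.0904), without wild-type array 2 (0.0518) and without mutant array 1 (0.107) or 3 (0.134).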

How the results depend on the processing

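Of 169 named genes that passed for mutant pollen minus unpollinated pistils, 149 passed under every alternative that tested them. The other 20 lost their call in at least 1, and none changed sign while passing. Of 17 named for mutant minus wild-type pollen, 11 passed under every alternative that tested them. Named genes on dim probe sets were not tested where those were left out. With array medians subtracted, 6633 probe sets were lower than unpollinated, against 4367, and 3578 higher, against 5083. With the compared groups alone, 11 probe sets were higher with mutant than wild-type pollen, against 6. Leaving out single arrays gave 4305 to 5007 higher and 3521 to 4379 lower against unpollinated, and 3 to 16 higher and 32 to 69 lower against wild type. With the replicate number as a block these counts were 4981, 4302, 9 and 58. Deviations of same-numbered mutant and unpollinated arrays correlated at 0.15, -0.162 and 0.031, and those of mutant and wild-type arrays at 0.15, -0.104 and 0.313. With 3 arrays per group these values cannot show whether same-numbered arrays shared a collection, which the labels do not state. The causes of these shifts were not tested. Many tube genes were dim before pollination, where background limits how well a fold is measured.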
